A study of Mus musculus with 7 samples.

Results

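Krüppel-like factors are zinc finger transcription factors, and 10 of their genes (Klf2, Klf3, Klf4, Klf5, Klf6, Klf9, Klf10, Klf11, Klf13 and Klf15) were followed in the mouse uterus by RNA sequencing. The genes were chosen by name and all 10 were found among the 31274 rows of the deposited table. The estrus group held 3 libraries and the diestrus group 4 libraries. All came from whole uteri of 2-month-old CD-1 mice, an outbred stock, that were unexposed and had intact ovaries. Both groups therefore differed by cycle stage only, as far as the labels go. Nothing in the labels ties a library to its own animal, so the p-values cover only the variation among these libraries, part of which may be technical.

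Krüppel-like factors bind GC-rich and CACCC sequences through a conserved set of zinc fingers near the carboxyl end. Their amino-terminal parts differ and recruit either coactivators or corepressors, which sorts the family into subgroups. In the rodent uterus Klf4 is known as an estrogen-induced gene of the epithelium, Klf15 as a progesterone-induced gene that restrains epithelial DNA synthesis, and Klf9 as a partner of the progesterone receptor. Estrus follows the estradiol peak, whereas progesterone prevails in diestrus.

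Levels were given as FPKM (fragments per kilobase of transcript, scaled to the mapped total of the library), which divides by length and lets genes be compared. FPKM carries no read count and the depth was unknown. Of the 31274 rows, 13920 reached at least 1 FPKM in at least 3 libraries and were tested with limma on log2(FPKM + 1). The 10 most abundant rows took 33.7% to 38.2% of the summed FPKM in the estrus libraries and 34.2% in diestrus replicate 1, but 12.1% to 18.7% in the other diestrus libraries. On the first principal component of the tested genes, with 60.2% of the variance, diestrus replicate 1 (11.3) lay nearer to the estrus libraries (-59.9 to -47.0) than the other diestrus libraries did (36.3 to 61.9). Markers of epithelium, smooth muscle and stroma were present in every library, as a whole uterus should have them.

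At estrus Klf4 and Klf3 were higher than at diestrus, and Klf2, Klf9, Klf11 and Klf15 were lower. Klf5, Klf6, Klf10 and Klf13 did not pass the test. All 10 genes passed the filter on low values, with every library above 2 FPKM. In limma with Benjamini-Hochberg adjustment over all 13920 tested genes, 6 of the 10 passed an adjusted p of 0.05, against 31.1% of all tested genes. The 2 that rose compare with 17.2% of all tested genes, and the 4 that fell with 14.0%. The median log2 fold change of the 10 genes was -0.09, and that of all tested genes was 0.05. The groups did not overlap for 5 of the 10, against 40.6% of tested genes. Estrus was the higher in 2 of these, against 21.9% of tested genes, and the lower in 3, against 18.7%. Over the leave-outs of 1 library each, 2 to 6 of the 10 passed: only Klf4 and Klf15 did without estrus replicate 2, and 2 rather than 4 were lower without estrus replicate 1. Only 1 was higher without estrus replicate 3 or without diestrus replicate 3 or 4, since Klf3 then missed the threshold (adjusted p = 0.0917, 0.0667 and 0.0685).

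**Figure D1:**
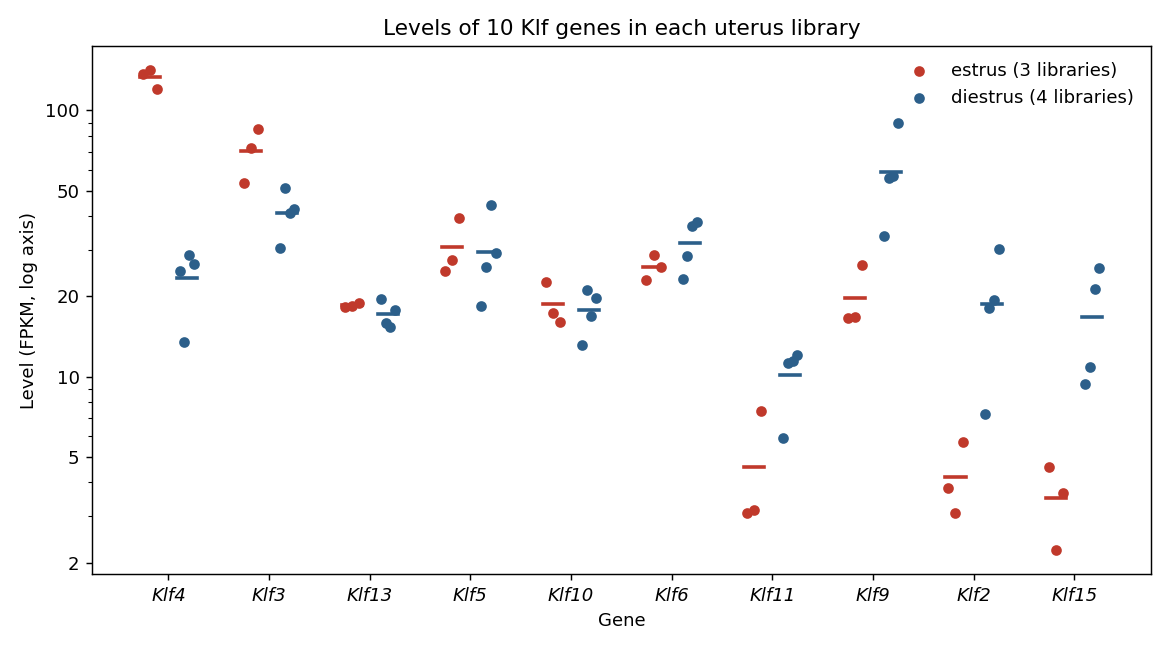
Levels of the 10 Klf genes in FPKM (vertical log axis), 1 point per library, with estrus left of diestrus for each gene and a bar at each group mean. Klf4 stood at 120.1 to 142 FPKM in estrus against 13.5 to 28.6 FPKM in diestrus, while Klf2, Klf9 and Klf15 were lower in every estrus library than in any diestrus library.

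The order of abundance differed between the stages. In estrus the means ran from Klf4 (133 FPKM) and Klf3 (70.3 FPKM) through Klf5, Klf6, Klf9, Klf10 and Klf13 (30.6 to 18.5 FPKM) to Klf11, Klf2 and Klf15 (4.56, 4.19 and 3.48 FPKM). There the range of Klf4 over the libraries lay above that of Klf3, that of Klf3 above Klf5, and that of Klf13 above Klf11, and the ranges of all other neighbours in the order overlapped. In diestrus the means ran from Klf9 (58.9 FPKM) and Klf3 (41.4 FPKM) through Klf6, Klf5 and Klf4 (31.7, 29.4 and 23.4 FPKM) to Klf2, Klf10, Klf13, Klf15 and Klf11 (18.7 to 10.2 FPKM). The ranges of every pair of neighbours in that order overlapped, although within each single diestrus library Klf9 lay above Klf3 and Klf3 above Klf6.

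The summed level of the 10 genes was 308, 332 and 348 FPKM in estrus replicates 1 to 3, against 186, 252, 292 and 332 FPKM in diestrus replicates 1 to 4, so the totals overlapped. These totals were not scaled to the summed FPKM of all rows, which was 677344 to 731457 in estrus and 471379 to 583079 in diestrus. Within the sum of the 10 genes Klf4 took 40.6% ± 5.39 in estrus (SD, n = 3) and 9.14% ± 3.39 in diestrus (SD, n = 4). Klf9 took 5.98% ± 1.34 in estrus and 21.7% ± 3.96 in diestrus. Klf15 took 1.07% ± 0.41 in estrus and 6.09% ± 1.67 in diestrus. The ratio of Klf4 to Klf9 FPKM was 8.26, 8.50 and 4.59 in the estrus libraries, against 0.74, 0.24, 0.51 and 0.30 in the diestrus libraries, so their order was turned round in every library. These shares and ratios are descriptions of the chosen genes and were not tested.

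**Figure D2:**
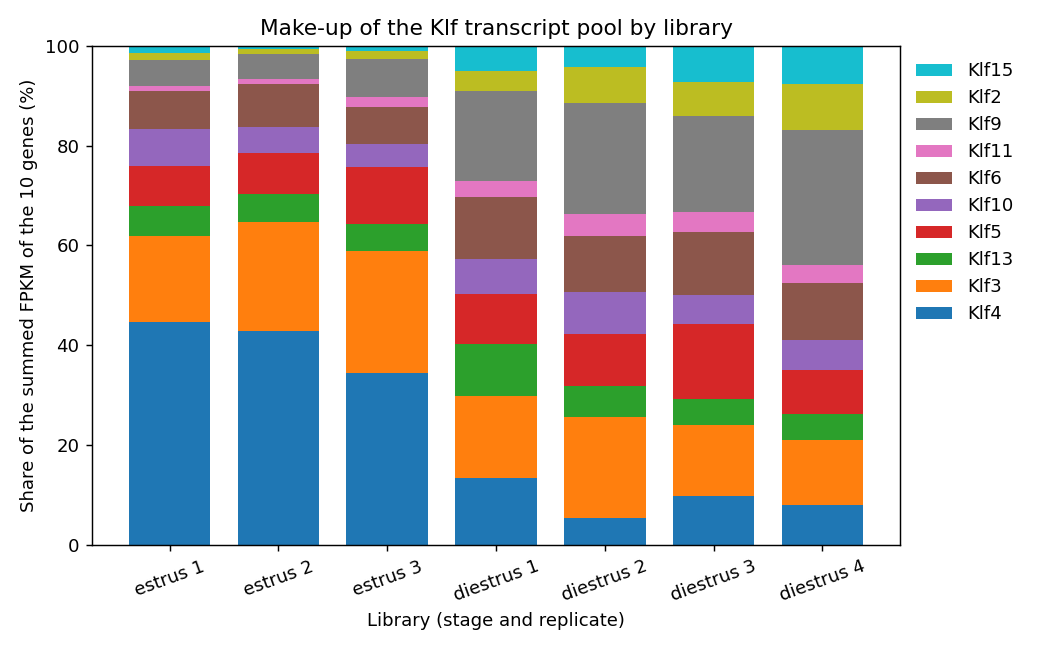
Share of each gene in the summed FPKM of the 10 Klf genes (vertical axis, percent), 1 bar per library, estrus libraries left. Klf4 fills 34.5% to 44.6% of the estrus bars and 5.34% to 13.4% of the diestrus bars, and Klf9 fills 5.04% to 7.51% of the estrus bars and 18.1% to 27.0% of the diestrus bars.

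Among the members of the subgroup known mainly as activators (Klf2, Klf4, Klf5 and Klf6), Klf4 rose, Klf2 fell, and the other two did not pass. Klf4 is a factor of epithelial differentiation and barrier formation (GRCm38 chromosome 4, 55527143 to 55532466, minus strand, protein-coding). It stood at 137, 142 and 120.1 FPKM in estrus replicates 1 to 3, against 24.9, 13.5, 28.6 and 26.5 FPKM in diestrus replicates 1 to 4. Every estrus library lay far above every diestrus library. The estrus mean was 5.69 times the diestrus mean in FPKM, and the log2 fold change was 2.51 (SE 0.25, limma adjusted p = 0.00141). Klf4 passed in all 16 alternative settings and leave-outs, with adjusted p from 0.00111 to 0.0124.

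Of the 10 epithelium markers 8 rose and none fell (17.2% and 14.0% of all tested genes did). Their summed level was 3135 to 3679 FPKM in estrus against 878 to 1182 FPKM in diestrus. The 3 with the smallest p were the keratin Krt7, the epithelial transcription factor Elf3 and the tight junction protein Cldn7, with log2 fold changes of 2.52, 3.13 and 2.07 (limma adjusted p = 0.00124, 0.00141 and 0.00195). Per 100 FPKM of summed epithelium markers, Klf4 stood at 4.37, 3.86 and 3.73 FPKM in estrus and at 2.34, 1.49, 2.42 and 3.02 FPKM in diestrus. The groups did not overlap on this scale, but it depends on the markers summed. The sum held Krt18 and Cldn4, which did not pass (log2 fold changes of 0.31 and -0.57). The log2 fold change of Klf4, 2.51, was not above those of Krt7 and Elf3, but above those of the remaining markers. The part of the epithelium markers in the higher Klf4 level was not tested. In bulk tissue, more cells of a type and more RNA per cell cannot be told apart.

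The Klf4 promoter is shown with that of Klf15, which fell, because both hold the E-box CACGTG, the site of the clock factors CLOCK and BMAL1 and of USF. They are the 250 bases before the RefSeq start on GRCm38.p6, 5′ to 3′ on the gene's strand, with capitals at each E-box. Klf4 covers chr4:55532476-55532725 on the minus strand, and Klf15 covers chr6:90462326-90462575 on the plus strand.
Klf4: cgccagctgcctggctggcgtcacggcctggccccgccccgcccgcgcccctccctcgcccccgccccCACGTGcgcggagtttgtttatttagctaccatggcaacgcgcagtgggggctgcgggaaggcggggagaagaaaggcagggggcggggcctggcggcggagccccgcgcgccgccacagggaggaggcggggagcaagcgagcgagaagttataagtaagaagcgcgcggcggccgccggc
Klf15: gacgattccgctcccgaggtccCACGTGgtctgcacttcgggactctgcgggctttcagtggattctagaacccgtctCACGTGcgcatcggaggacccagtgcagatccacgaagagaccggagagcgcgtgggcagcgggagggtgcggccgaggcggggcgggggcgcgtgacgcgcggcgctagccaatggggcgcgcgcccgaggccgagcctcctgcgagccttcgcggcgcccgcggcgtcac

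The table of RefSeq promoters gave a window for 8 of the 10 genes, all but Klf5 and Klf10. The E-box was found, on either strand, in 4 of these windows (Klf4, Klf6, Klf11 and Klf15) and in 6.02% of all 32851 promoter windows. Klf15 held 2, which began 228 and 172 bases before the start, and Klf4 held 1, which began 182 bases before it. The palindrome reads alike on both strands and contains the hypoxia element ACGTG, found in 5 of the 8 windows and in 16.6% of all windows. The GC box GGGCGG, a sequence that Krüppel-like and Sp factors themselves bind, was in 7 of the 8 windows, all but that of Klf9, and in 32.7% of all windows. The estrogen response element GGTCANNNTGACC and the glucocorticoid and progesterone response element GNACANNNTGTNC were in none of the 8, and in 0.0639% and 0.387% of all windows. These matches are descriptions of letters and were not tested for binding.

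Klf2 is the flow-induced factor of endothelium and a regulator of lymphocyte quiescence (chromosome 8, 72319033 to 72321656, plus strand). It stood at 3.81, 3.08 and 5.68 FPKM in estrus, against 7.26, 18.1, 19.4 and 30.1 FPKM in diestrus. The groups did not overlap, but diestrus replicate 1 lay closer to the estrus libraries than to the other diestrus libraries. The diestrus mean was 4.47 times the estrus mean, and the log2 fold change was -1.81 (SE 0.42, limma adjusted p = 0.0175). The adjusted p was 0.0548 without estrus replicate 1 and 0.0779 without estrus replicate 2, within a range of 0.00257 to 0.0779 over all alternatives.

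All 10 endothelium markers fell too, against 14.0% of all tested genes. Their summed level was 221, 195 and 236 FPKM in estrus, against 314, 462, 532 and 698 FPKM in diestrus, and replicate 1 was again the lowest of the diestrus libraries. The adhesion protein Esam, the claudin Cldn5 and the angiopoietin receptor Tek had log2 fold changes of -1.03, -1.57 and -1.21 (limma adjusted p = 0.00993, 0.0109 and 0.0127). Without estrus replicate 2 none of the 10 passed in limma, with 10 at an unadjusted p under 0.05, while 4 passed without estrus replicate 1 and 6 without diestrus replicate 3. Per 100 FPKM of summed endothelium markers, Klf2 stood at 1.73, 1.58 and 2.41 FPKM in estrus and at 2.31, 3.91, 3.64 and 4.32 FPKM in diestrus, so on this scale estrus replicate 3 lay above diestrus replicate 1. The part of the endothelium markers in the lower Klf2 level was not tested.

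**Figure D3:**
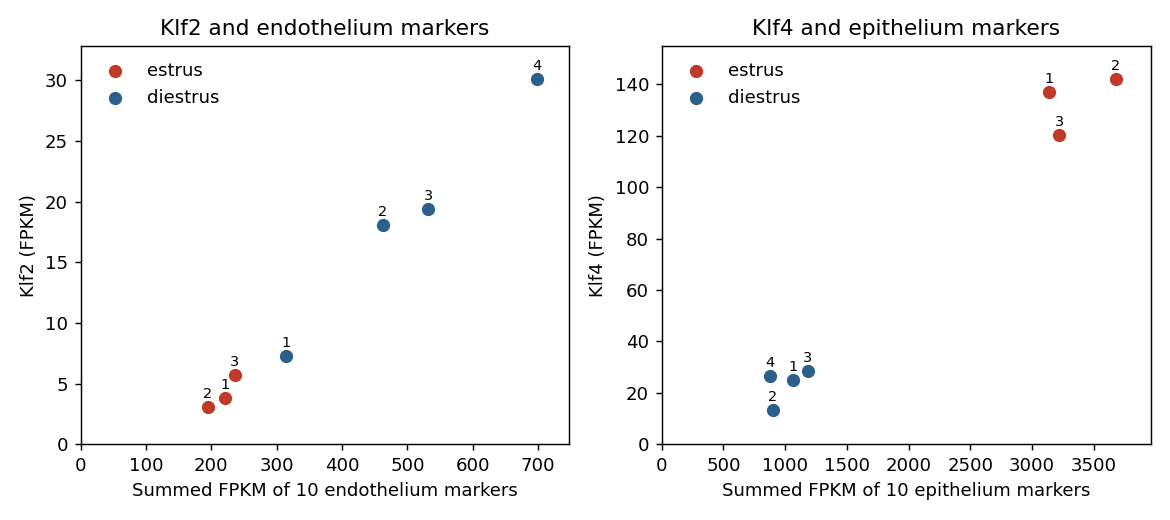
Klf2 against the summed FPKM of 10 endothelium markers (left) and Klf4 against that of 10 epithelium markers (right), 1 point per library, in FPKM with replicate numbers beside the points. Klf2 and the endothelium sum are lowest in the estrus libraries (up to 5.68 and 236 FPKM), next in diestrus replicate 1 (7.26 and 314 FPKM), and highest in diestrus replicate 4 (30.1 and 698 FPKM), while the Klf4 points form separate estrus and diestrus clusters.

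Of 5 endothelial genes known to be induced by KLF2 and KLF4 in cultured endothelium, 4 were tested and 1 fell (14.0% of all tested genes did). This was the nitric oxide synthase Nos3, at 2.93 ± 0.20 FPKM in estrus (SD, n = 3) and 6.56 ± 1.17 FPKM in diestrus (SD, n = 4), and its log2 fold change was -0.93 (SE 0.16, limma adjusted p = 0.00571). The anticoagulant receptor Thbd and the sphingosine receptor S1pr1 had log2 fold changes of -0.63 and 0.78 and adjusted p of 0.0658 and 0.0608, and the list median was -0.72. Without diestrus replicate 1 the number that fell was 3, as Thbd and the connexin Gja4 then passed (0.00664 and 0.00828), and with the replicate block S1pr1 was higher (0.0208). Of 4 genes known to be repressed by them, 3 were tested and none passed in limma, with 1 at an unadjusted p under 0.05, and the median was 0.10. Ccl2, Edn1 and Vcam1 had log2 fold changes of 1.08, -0.43 and 0.10, and Ccl2 passed without diestrus replicate 2 (0.00428).

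The Klf2 promoter is shown for its match to the MEF2 consensus, through which MEF2 factors are known to drive Klf2 in endothelium. The window is chr8:72318812-72319061 on the plus strand (RefSeq, GRCm38.p6), the 250 bases before the start, with the match in capitals.
Klf2: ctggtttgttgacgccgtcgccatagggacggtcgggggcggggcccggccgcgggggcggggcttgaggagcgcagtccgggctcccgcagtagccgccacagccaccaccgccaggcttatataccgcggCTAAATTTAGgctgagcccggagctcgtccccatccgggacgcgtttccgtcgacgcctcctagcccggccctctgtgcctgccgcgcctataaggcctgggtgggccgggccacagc
The match, CTAAATTTAG, began 118 bases before the RefSeq start. The GENCODE gene given above begins earlier, at 72319033, so the end of this window lies inside it and the match is nearer to that start. The MEF2 consensus was found in 1 of the 8 windows and in 2.92% of all windows.

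Klf5 is an epithelial factor needed in the mouse uterus for implantation (chromosome 14, 99298691 to 99315036). It stood at 24.9, 27.5 and 39.5 FPKM in estrus, against 18.4, 25.9, 44.1 and 29.2 FPKM in diestrus. The groups overlapped throughout, and the log2 fold change was 0.09 with a 95% interval of -0.57 to 0.76 (limma adjusted p = 0.819). Klf6, an immediate early factor and tumour suppressor (chromosome 13, 5861482 to 5870394), stood at 23.1, 28.6 and 25.9 FPKM in estrus, against 23.4, 28.5, 36.9 and 38.1 FPKM in diestrus. Its log2 fold change was -0.26 with a 95% interval of -0.70 to 0.17 (limma adjusted p = 0.305).

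Klf3 is the member of the subgroup that represses through the corepressor CtBP (chromosome 5, 64803388 to 64832901, plus strand). It stood at 53.5, 72.6 and 85.0 FPKM in estrus, against 30.5, 51.0, 41.2 and 42.8 FPKM in diestrus. The groups did not overlap, but estrus replicate 1 and diestrus replicate 2 lay close together. The estrus mean was 1.70 times the diestrus mean, and the log2 fold change was 0.75 (SE 0.21, limma adjusted p = 0.0341). Klf3 failed the threshold in 7 of 16 alternatives, with adjusted p from 0.0298 to 0.121: quantile normalization (0.112), median-ratio scaling (0.0513), no filter (0.0535), and without estrus replicates 2 (0.121) or 3 (0.0917) or diestrus replicates 3 (0.0667) or 4 (0.0685).

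In the subgroup that represses through the corepressor Sin3 (Klf9, Klf10, Klf11 and Klf13), Klf9 and Klf11 fell and Klf10 and Klf13 did not pass. Klf9 is the progesterone receptor partner and is known to be induced by glucocorticoid and thyroid hormone (chromosome 19, 23141226 to 23168134, plus strand). It stood at 16.6, 16.7 and 26.2 FPKM in estrus, against 33.7, 55.8, 56.5 and 89.7 FPKM in diestrus. The groups did not overlap, with diestrus replicate 1 the lowest and replicate 4 the highest of its group. The diestrus mean was 2.97 times the estrus mean, and the log2 fold change was -1.47 (SE 0.32, limma adjusted p = 0.0135). Without estrus replicate 2 the adjusted p was 0.0647, the highest of a range that began at 0.00446. Per 100 FPKM of summed endothelium markers, Klf9 stood at 7.51, 8.57 and 11.1 FPKM in estrus and at 10.7, 12.1, 10.6 and 12.9 FPKM in diestrus, so the groups overlapped on this scale. That overlap holds for this list only, all 10 markers of which fell, and which cells hold Klf9 is not known from bulk tissue. Klf9 was not scaled to the smooth muscle or stroma markers, whose sums overlapped between the stages. The part of these or other markers in the lower Klf9 level was not tested.

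Klf13, the close relative of Klf9 (chromosome 7, 63886351 to 63938915), had the narrowest 95% interval of the 10, at 18.2, 18.5 and 19.0 FPKM in estrus and 19.6, 15.9, 15.3 and 17.8 FPKM in diestrus. The groups overlapped, and the log2 fold change was 0.11 with a 95% interval of -0.16 to 0.39 (limma adjusted p = 0.49), against an interval of -2.21 to -0.74 for Klf9. The ratio of Klf13 to Klf9 FPKM was 1.10, 1.10 and 0.73 in estrus and 0.58, 0.28, 0.27 and 0.20 in diestrus. The difference between the fold changes of these relatives was not tested.

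Klf10 and Klf11 are relatives known as TGF-beta-inducible early genes. Klf11 (chromosome 12, 24651274 to 24662789) stood at 3.08, 3.17 and 7.43 FPKM in estrus, against 5.90, 11.3, 11.5 and 12.0 FPKM in diestrus. The groups overlapped, because estrus replicate 3 lay above diestrus replicate 1. The log2 fold change was -1.05 (SE 0.33, limma adjusted p = 0.0448). This call was near the threshold: Klf11 failed in 7 of 16 alternatives, with adjusted p from 0.0161 to 0.16, namely no filter (0.0776), the replicate block (0.0512), and without estrus replicates 1 (0.138) or 2 (0.16) or diestrus replicates 2 (0.0922), 3 (0.0967) or 4 (0.105).

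Klf10 (chromosome 15, 38291463 to 38300706) stood at 22.7, 17.3 and 16.0 FPKM in estrus, against 13.1, 21.2, 16.9 and 19.8 FPKM in diestrus. The groups overlapped, and the log2 fold change was 0.08 with a 95% interval of -0.37 to 0.52 (limma adjusted p = 0.783). Of 12 TGF-beta pathway genes 2 rose and 3 fell (17.2% and 14.0% of all tested genes did), with a median log2 fold change of 0.06. The Smad inhibitor Skil rose by 1.50 on the log2 scale, Smad3, which relays the signal, fell by 0.75, and the inhibitory Smad7 rose by 0.86 (limma adjusted p = 0.00142, 0.0159 and 0.0202). The ligands Tgfb1 and Tgfb3 were the other two that fell, with adjusted p of 0.0412 and 0.0487. Tgfb1 lost the call in 8 of 16 alternatives and Tgfb3 in 9, with adjusted p up to 0.137 without estrus replicate 2 and 0.149 without estrus replicate 1. Both passed without diestrus replicate 1, where 3 genes of the list were higher and 3 lower. Smad3 lost the call without estrus replicate 2 (limma adjusted p = 0.0700) and with the replicate block (0.0525). Smad7 lost it without estrus replicates 1 (0.0651) or 3 (0.0592) or diestrus replicate 4 (0.0529), and with the replicate block (0.0732).

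Klf15 belongs to none of these subgroups and is known from mouse liver, muscle and fat as a regulator of amino acid and glucose metabolism (chromosome 6, 90462576 to 90475238, plus strand). It stood at 4.56, 2.23 and 3.66 FPKM in estrus, against 9.39, 10.9, 21.3 and 25.6 FPKM in diestrus. The groups did not overlap, and diestrus replicates 3 and 4 lay above replicates 1 and 2. The diestrus mean was 4.82 times the estrus mean, and the log2 fold change was -1.91 (SE 0.37, limma adjusted p = 0.00914). Klf15 passed in all 16 alternatives, with adjusted p from 0.00563 to 0.0475. Per 100 FPKM of summed endothelium markers it stood at 2.07, 1.14 and 1.55 FPKM in estrus and at 2.99, 2.35, 4.00 and 3.67 FPKM in diestrus, so the groups did not overlap on this scale. Which cells hold Klf15 is not known from bulk tissue, and the part of these or other markers in its lower level was not tested.

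Adipocyte markers varied widely between libraries of the same stage, and none of 7 passed in limma, with 0 at an unadjusted p under 0.05. Their summed level was 9.67, 88.8 and 78.9 FPKM in estrus, against 93.9, 49.2, 308 and 94.7 FPKM in diestrus, so the highest sum was in diestrus replicate 3 and the highest Klf15 level in replicate 4. Of the 3 with the smallest p, Car3, Cfd and Adipoq, the log2 fold changes were -1.56, -1.58 and -1.11. Of 7 metabolic genes known to be induced by KLF15, 4 were tested and 2 fell (14.0% of all tested genes did), with a median of -0.40. The proline dehydrogenase Prodh and the alanine aminotransferase Gpt fell by 1.03 and fell by 0.55 (limma adjusted p = 0.038 and 0.0427), while the glucose transporter Slc2a4 had a log2 fold change of 0.81 (adjusted p = 0.0635). Prodh lost the call in 6 of 16 alternatives and Gpt in 10 of 15, with adjusted p up to 0.11 and 0.15 without estrus replicate 2. Slc2a4 passed without estrus replicate 1 (0.0362).

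**Figure D4:**
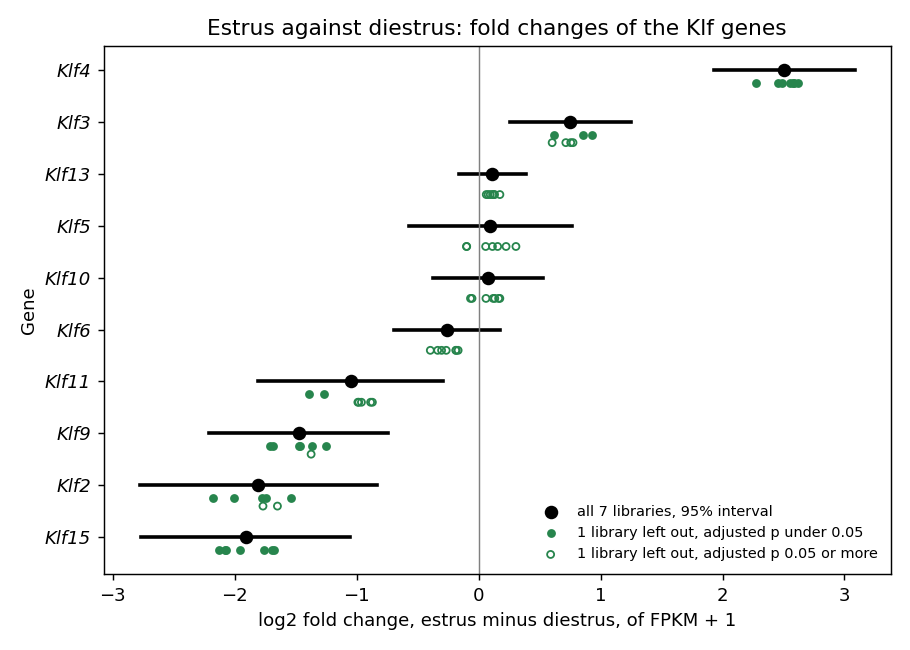
Log2 fold changes of FPKM + 1, estrus minus diestrus (horizontal axis), for the 10 Klf genes. Black points and lines are the values from all 7 libraries with 95% intervals, and green points leave out 1 library each, with those at an adjusted p of 0.05 or more open and drawn lower. Klf4 (2.51) and Klf15 (-1.91) have filled points only, and Klf5, Klf6, Klf10 and Klf13 lie near 0 with open points only.

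The 4 genes that fell were each lowest in replicate 1 and highest in replicate 4 among the diestrus libraries, as were Klf6, which did not pass, and the sum of all 10 genes. The highest diestrus level was 4.15 times the lowest for Klf2, 2.66 times for Klf9, 2.04 times for Klf11 and 2.73 times for Klf15. Without diestrus replicate 1 their log2 fold changes were -2.18, -1.71, -1.27 and -2.13. Klf3, which rose, and Klf5 and Klf10, which did not pass, were also lowest in diestrus replicate 1, but not highest in replicate 4. Klf4 had its lowest diestrus value in replicate 2 and Klf13 in replicate 3.

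The genes whose levels over the 7 libraries followed each of the 6 changed members most closely were found by the root-mean-square difference of log2(FPKM + 1), each gene centred on its mean, among 9736 genes that averaged 5 FPKM or more. For Klf4 they were the epithelial p53 target Perp (0.19) and Krt7 (0.20). For Klf2 they were the matrix proteins Postn (0.13) and Prelp (0.19). For Klf3 they were Rnf19b, a ubiquitin ligase, and Cux1, a homeobox factor (0.09 each). For Klf9 they were Ypel4 and Atp1b2, a sodium pump subunit (0.12 each). For Klf11 they were Dhdh, a dihydrodiol dehydrogenase, and Rasl11b, a small GTPase (0.16 and 0.18), and for Klf15 Lrrn1 and Txndc16 (0.16 each). These are descriptions over 7 libraries that share the 2 stages.

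The remaining family members were low or did not pass, and Klf12 entered the test only through diestrus. Klf12, a CtBP-binding relative of Klf3, stood at 0.50, 0.51 and 0.54 FPKM in estrus, against 1.40, 1.31, 2.17 and 1.50 FPKM in diestrus. Every estrus library was under the 1 FPKM that the filter asked for and every diestrus library above it, so the filter favoured a difference and no test is given. Klf16 had 9.15 ± 1.94 FPKM in estrus (SD, n = 3) and 5.92 ± 1.08 FPKM in diestrus (SD, n = 4), with an adjusted p of 0.0514, which was 0.0434 without estrus replicate 3 and 0.0221 without diestrus replicate 1. Klf7 and Klf8 had log2 fold changes of -0.09 and -0.05, and Klf1, the erythroid factor, Klf14 and Klf17 did not reach the filter. Of 2 erythroid markers tested, Hbb-bs and Alas2, none passed in limma, with 0 at an unadjusted p under 0.05, and their log2 fold changes were -0.04 and -0.28.

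The related Sp factors, which bind the same GC boxes, did not pass where they were abundant. Sp3 stood at 41.1 ± 2.18 FPKM in estrus and 41.6 ± 3.08 FPKM in diestrus, and Sp1 at 29.8 ± 1.93 FPKM in estrus and 27.8 ± 2.73 FPKM in diestrus. Sp4 fell, with a log2 fold change of -0.39 (limma adjusted p = 0.0462), and it lost the call in every leave-out but that of diestrus replicate 1, with adjusted p up to 0.176 without estrus replicate 2. Sp5, a Wnt target, stood at 0.54 ± 0.08 FPKM in estrus (SD, n = 3) and 3.37 ± 2.64 FPKM in diestrus (SD, n = 4), and since only its diestrus libraries reached 1 FPKM, no test is given. Of 17 cofactors and ubiquitin ligases of Krüppel-like factors, such as Ctbp2 and Sin3b, none passed in limma, with 5 at an unadjusted p under 0.05. Ctbp2 and Sin3b had log2 fold changes of 0.30 and 0.27, and the list median was 0.09. Without diestrus replicate 1, 2 of the 17 were higher, and without diestrus replicate 2, 1 was.

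Of 5 steroid receptor genes tested none passed in limma, with 1 at an unadjusted p under 0.05. The glucocorticoid receptor Nr3c1 stood at 16.2 ± 1.57 FPKM in estrus and 18.4 ± 1.95 FPKM in diestrus. The mineralocorticoid receptor Nr3c2 and the progesterone receptor Pgr had log2 fold changes of -0.61 and 0.79 (limma adjusted p = 0.0709 and 0.187). Pgr stood at 109 FPKM in diestrus replicate 1 and at 29.3 to 42.6 FPKM in the other diestrus libraries, and without replicate 1 it was higher at estrus by 1.19 on the log2 scale (limma adjusted p = 0.00606). Nr3c2, the 1 gene at an unadjusted p under 0.05, reached 1 FPKM in diestrus only, so the filter favoured its difference. This holds also for its limma adjusted p of 0.0357 without diestrus replicate 3. Of 9 glucocorticoid-induced genes 2 rose and 1 fell (17.2% and 14.0% of all tested genes did), with a median of -0.47. Ddit4, an inhibitor of the growth kinase mTOR, rose by 2.02, Nfkbia, an inhibitor of NF-kappa B, rose by 0.85, and Tsc22d3, the glucocorticoid-induced leucine zipper, fell by 2.10 (limma adjusted p = 0.00151, 0.031 and 0.0188). Nfkbia lost the call without estrus replicates 2 (0.121) or 3 (0.0775) or diestrus replicate 2 (0.0679). It also did with no filter (0.0512) and with quantile normalization (0.0744). Tsc22d3 lost the call without estrus replicates 1 (0.0507) or 2 (0.0797).

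Klf9, Klf10 and Klf15 are known as clock-controlled genes in other mouse tissues. Of 19 circadian clock genes 2 rose and 8 fell (17.2% and 14.0% of all tested genes did), with a median log2 fold change of -0.64. The repressor Bhlhe40 rose by 2.24, while the output factor Hlf fell by 1.60 and the nuclear receptor Nr1d1 fell by 1.63 (limma adjusted p = 0.00185, 0.00251 and 0.00932). Without estrus replicate 2 the number that fell was 2, without estrus replicate 1 it was 3, without diestrus replicates 2 and 4 it was 4 each, and without estrus replicate 3 it was 10. The number that rose was 1 without estrus replicate 1 or 3, and 3 without diestrus replicate 3. The hour of collection is not given in the labels, so its part in these values and in the Klf genes was not tested.

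Several Klf genes respond early to growth signals and to handling of tissue. Of 13 tested immediate early genes 3 rose and 3 fell (17.2% and 14.0% of all tested genes did), with a median of -0.41. Fos rose by 1.85, Junb rose by 0.74 and Ier3 rose by 1.65 (limma adjusted p = 0.0111, 0.0201 and 0.0248), while Atf3 fell by 0.99 and Myc fell by 1.39. The remaining gene of the 3, Egr3, averaged 0.30 FPKM in estrus and 0.97 FPKM in diestrus, and it entered the test only through 3 diestrus libraries that reached 1 FPKM, so its call was favoured by the filter. Without estrus replicate 2 none of the 13 passed in limma, with 6 at an unadjusted p under 0.05. Without estrus replicate 1, 1 gene was higher and 2 were lower, without estrus replicate 3, 2 were higher and 1 was lower, and without diestrus replicate 2, 3 were higher and 2 were lower. Without diestrus replicate 1, 3 were higher and 5 were lower, and without diestrus replicate 4, 3 were higher and 0 lower.

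Of the markers of smooth muscle, stroma and leukocytes, some rose and some fell, as did 17.2% and 14.0% of all tested genes. Of 10 smooth muscle markers Actg2 rose by 1.13 and Smtn fell by 0.93 (limma adjusted p = 0.0319 and 0.0441), with summed levels of 3477 to 6047 FPKM in estrus and 3146 to 7992 FPKM in diestrus. Actg2 lost the call in 4 of the 7 leave-outs, with adjusted p up to 0.106 without estrus replicate 2, and Smtn in 6 of 7, with up to 0.146 without the same library. Of 10 stroma markers 2 rose and 2 fell, among them Thy1, Col6a2 and Col6a1 with log2 fold changes of -1.44, 0.95 and 0.97, and their sums were 5624 to 7524 FPKM in estrus and 3854 to 6623 FPKM in diestrus. Of 8 tested leukocyte markers 2 rose and 3 fell, with sums of 252 to 345 FPKM in estrus and 260 to 606 FPKM in diestrus. Cd79b of B cells and Itgam of myeloid cells rose by 1.54 and 2.80, and Csf1r of macrophages fell by 1.21 (limma adjusted p = 0.00365, 0.00572 and 0.0149). Without estrus replicate 2, Col6a1, Col6a2 and Csf1r did not pass (0.0865, 0.0860 and 0.0718). Thy1 passed in every leave-out, but Vim, the other stroma gene that fell (adjusted p = 0.0379), lost the call in 5 of 7. The number of stroma markers that rose was 0 without estrus replicates 2 or 3 or diestrus replicate 4, 1 without diestrus replicate 3 and 3 without diestrus replicate 1. The number of leukocyte markers that fell was 0 without estrus replicate 2, 1 without estrus replicates 1 or 3 or diestrus replicate 4, 2 without diestrus replicates 2 or 3, and 4 without diestrus replicate 1. Of these, Emr1 lost the call in 6 of 7 leave-outs and Lyz2 in 3 of 7. Without diestrus replicate 1, 3 smooth muscle markers were lower.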

How the data were processed

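Illumina TruSeq RNA libraries had been prepared from DNase-treated RNeasy RNA, per the labels' protocols. The authors deposited FPKM, 1 column per library. TopHat2 2.0.4 and mm10 are named, without a role, per the submitters' processing notes. The sources used here do not name the program behind the FPKM or its strand setting. Sample descriptions identified the columns, with 0 left over, and titles gave the groups.

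Because FPKM are not counts, limma 3.58.1 in R 4.3.3 was fitted to log2(FPKM + 1) over the 13920 genes that reached 1 FPKM in 3 or more libraries (2 groups, trended empirical Bayes, two-sided, Benjamini-Hochberg threshold 0.05). A pseudocount of 1 understates changes of low genes. Fold changes are estrus minus diestrus. The fit was also run on simulated data with independent noise and no shift shared by a library. That run thus does not cover such shifts, and its outcome is not reported here.

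The members, gene lists and tests were chosen with earlier results of these data known. Named are the members, the other Klf and Sp genes, up to 3 genes per list with the smallest p, and the 2 nearest genes of each changed member. Other list genes were named after their values were seen. Some genes that this rule names are not reported here. Alternatives were pseudocounts of 0.1 and 5, 2 filters, 2 scalings, 2 moderations, a block for the replicate number, and each library left out in turn. The ratios of members and the levels per marker sum were also chosen after values were seen. Gene positions are from GENCODE M21 (GRCm38, also called mm10) and promoters from RefSeq (GRCm38.p6). Plots used matplotlib 3.10.9 (Python 3.11.15).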

Additional observations from a re-analysis of the deposited data

Results flagged for a closer look

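In diestrus, Klf11 in replicate 1 stood far from the other libraries of its group, at 5.90 FPKM against 11.3 to 12.0 FPKM. The gap to its nearest neighbour was 0.875 of the whole range of the group, above Dixon's critical value for 4 samples, which chance exceeds in about 5% of groups. The other 9 genes showed no such gap in diestrus, and the estrus group of 3 is too small for this check. All 10 genes were checked without adjustment, so the 5% holds for each gene and not for the set.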

How the results depend on the processing

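Klf4 and Klf15 kept their direction and their call in all 16 alternatives. Over the single-library leave-outs, the number of Klf genes that passed was 2 to 6, with 1 to 2 higher and 1 to 4 lower. For all tested genes it was 1433 to 5311, with 854 to 2866 higher and 579 to 2445 lower. The lowest counts came without estrus replicate 2. No filter, median-ratio scaling and quantile normalization left 1 Klf gene higher, since Klf3 missed the threshold. A mean of at least 5 FPKM left 1181 genes lower, with fewer genes tested. With the replicate block 5 Klf genes passed, and 2281 genes in all, 1299 higher and 982 lower. No estrus library carries the number of diestrus replicate 4, so the block takes that library out of the comparison. Its fold changes therefore equal those of that leave-out, such as -1.54 for Klf2 and -1.68 for Klf15, and these 2 alternatives are not independent. Same-numbered libraries deviated together with correlations of 0.20, 0.02 and 0.17, and not every library correlated best with its own number. With so few libraries, these correlations cannot decide whether the numbers pair them. Apart from the size of the groups, the unknown depth limits the low genes, such as Klf12.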
